A study of Mus musculus with 2 samples.

Results

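Condensin is the ring-shaped complex that compacts chromosomes for cell division. Its 2 forms share a pair of SMC ATPases, Smc2 and Smc4, and differ in their other subunits. Condensin I carries Ncapd2, Ncaph and Ncapg, and condensin II carries the corresponding Ncapd3, Ncaph2 and Ncapg2. Condensin II is known to be nuclear throughout the cycle and to act from prophase, whereas condensin I reaches the chromosomes once the nuclear envelope has broken down. Top2a, which passes one DNA duplex through another, and Mki67, the Ki-67 protein that coats mitotic chromosomes, work on the same chromosomes and are standard markers of dividing cells. These 10 genes were chosen by symbol, and all 10 were among the 10666 genes of the expression table.

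The cells came from cortical neurospheres, free-floating cultures of neural progenitors, made from wild-type C57BL/6 mouse dorsal telencephalon at embryonic day 14.5 and grown with EGF and bFGF. There was 1 condition with 2 replicate cultures, profiled with 10x Genomics 3' libraries, and the labels do not say whether the cultures came from separate embryos. Culture 1 held 5748 cells with a median of 19477 UMIs per cell and culture 2 held 7057 cells with a median of 14637 UMIs, and 48 cell barcodes occurred in both. With 1 condition and 2 cultures no test was made: each value is given for both cultures, and the distance between them is the only measure of replicate error. The progenitor markers Nes, Vim, Fabp7 and Slc1a3 had a value above 0 in 89.8% to 100% of cells, Pax6 in 21.1% and 23.1%, and Olig2, a factor of the oligodendrocyte lineage that progenitors in culture also make, in 97.3% and 91.9%. Of the neuronal markers, Gap43 was found in 89.2% and 94.1% of cells, Stmn3 in 85.4% and 54.2%, Map2 in 77.7% and 63.6%, and Dcx in 7.34% and 1.56%. In all, 18 of the 33 listed markers could be read, and the other 15, among them Sox2 and every listed marker of microglia, endothelium and erythroid cells, were not analysed here.

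Each cell carries a cell-cycle position assigned by the study, an angle that runs from 0 to 2π. Cells that Seurat staged as G1 had a circular mean of 1.97π in culture 1 and 1.96π in culture 2, cells staged as S lay at 0.644π and 0.569π, and cells staged as G2M at 1.08π and 1.16π. The study built the angle from variable genes annotated to the cell cycle, and it names Top2a, Smc2 and Smc4 among the highly weighted ones. Which of the other members it used was not looked up here. Other cell-cycle lists also hold members. Smc2, Smc4, Ncapd2, Ncaph, Ncapd3, Ncapg2 and Mki67 are among the cyclone markers. Smc4, Ncapd2, Top2a and Mki67 are among the Seurat G2M genes. That the members follow the angle is therefore partly built in, and the results below turn on how they differ along it. As a check, a second angle was made from 594 cell-cycle genes without any member, and its circular correlation with the deposited angle was 0.937 in culture 1 and 0.919 in culture 2.

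The start regions of 4 members are shown because they carry the contrasts described below: Ncapg and Ncapg2 are the matched subunits that diverged most, and Top2a and Mki67 had the largest share of variance tied to the position. Each run reads 5' to 3' on the strand of the gene, from 250 bases before the RefSeq start to 30 bases after it (GRCm38.p6), and the capitals mark matches to 3 motifs of cell-cycle promoters: the CHR (TTTGAA or TTCGAA), the CCAAT box (CCAAT) and an E2F-like site (TTTNNCGC), each searched on both strands.
Ncapg, chr5:45669675-45669954, plus strand: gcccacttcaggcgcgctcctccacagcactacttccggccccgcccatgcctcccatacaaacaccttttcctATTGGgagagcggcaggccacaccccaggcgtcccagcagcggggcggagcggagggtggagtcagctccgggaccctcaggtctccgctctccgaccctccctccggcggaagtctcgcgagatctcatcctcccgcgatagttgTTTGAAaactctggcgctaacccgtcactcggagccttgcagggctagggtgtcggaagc
Ncapg2, chr12:116405186-116405465, plus strand: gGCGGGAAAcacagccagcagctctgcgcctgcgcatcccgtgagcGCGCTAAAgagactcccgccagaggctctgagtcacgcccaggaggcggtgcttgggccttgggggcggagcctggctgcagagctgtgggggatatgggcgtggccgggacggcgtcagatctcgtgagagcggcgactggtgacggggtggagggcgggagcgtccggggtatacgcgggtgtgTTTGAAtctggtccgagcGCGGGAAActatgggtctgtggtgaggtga
Top2a, chr11:99024160-99024439, minus strand: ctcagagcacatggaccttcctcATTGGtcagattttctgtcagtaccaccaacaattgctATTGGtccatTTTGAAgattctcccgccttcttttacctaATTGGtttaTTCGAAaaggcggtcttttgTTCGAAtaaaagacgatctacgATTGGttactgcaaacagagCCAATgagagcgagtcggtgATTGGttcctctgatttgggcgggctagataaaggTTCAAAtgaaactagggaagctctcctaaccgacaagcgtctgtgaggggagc
Mki67, chr7:135716350-135716629, minus strand: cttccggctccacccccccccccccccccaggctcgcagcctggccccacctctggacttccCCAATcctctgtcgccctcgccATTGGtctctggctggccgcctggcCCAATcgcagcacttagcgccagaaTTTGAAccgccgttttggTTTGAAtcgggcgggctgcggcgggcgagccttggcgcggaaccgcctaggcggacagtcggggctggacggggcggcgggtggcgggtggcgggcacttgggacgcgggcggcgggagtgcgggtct

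Ncapg held a CHR match 30 bases before the start, a CCAAT box at -176 and, past the printed stretch, an E2F-like match at base 32 after the start, and Ncapg2 a CHR match at -18 with 3 E2F-like matches and no CCAAT box. The Top2a window had 6 CCAAT boxes and 4 CHR matches, and the Mki67 window 3 and 2. Windows of 300 bases were listed for 9 of the 10 members (none was used for Smc4), and as Ncapd3 has 2 starts there were 10 windows. A CHR match lay in 8 of the 10, against 19.2% of all 32851 promoters, a CCAAT box in 5, against 37.4%, and an E2F-like match in 3, against 5.17%. Ncaph and the first start of Ncapd3 held none of the motifs, and the CHR match of Ncapd3 was at its second start, inside the gene. The CCAAT box was found in 2 of the 3 condensin I windows and in 0 of the 4 condensin II windows. A match describes letters only, and no binding was measured here.

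All members followed the position. With 2 harmonics of the angle fitted to log2(value + 1), the share of variance explained (R2) was at least 0.05 in both cultures for 10 of 10 members, where 4.01% of all 10666 genes reached it. Ranked by the R2 of the culture where it was lower, the members lay between place 10 and place 328 of all genes. Top2a had an R2 of 0.666 in culture 1 and 0.655 in culture 2, Mki67 0.655 and 0.642, Smc2 0.647 and 0.595, and Smc4 0.566 and 0.479. The subunits that are particular to 1 complex had lower values. Ncapg came first with 0.378 and 0.258, followed by Ncapg2 with 0.231 and 0.204, Ncapd2 with 0.196 and 0.190, Ncaph with 0.152 and 0.189 and Ncapd3 with 0.153 and 0.147. Ncaph2 was last with 0.0705 and 0.0944. The means of Ncapd2, Ncaph and Ncapd3 lay closer to their neighbours than the 2 cultures of Ncaph lay to each other. The complex-specific subunits other than Ncaph2 were also found in fewer cells than the SMC pair, 13.5% to 33.7% of all cells against 48.6% to 69.2%, and the part of detection in the order was not tested.

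**Figure D1:**
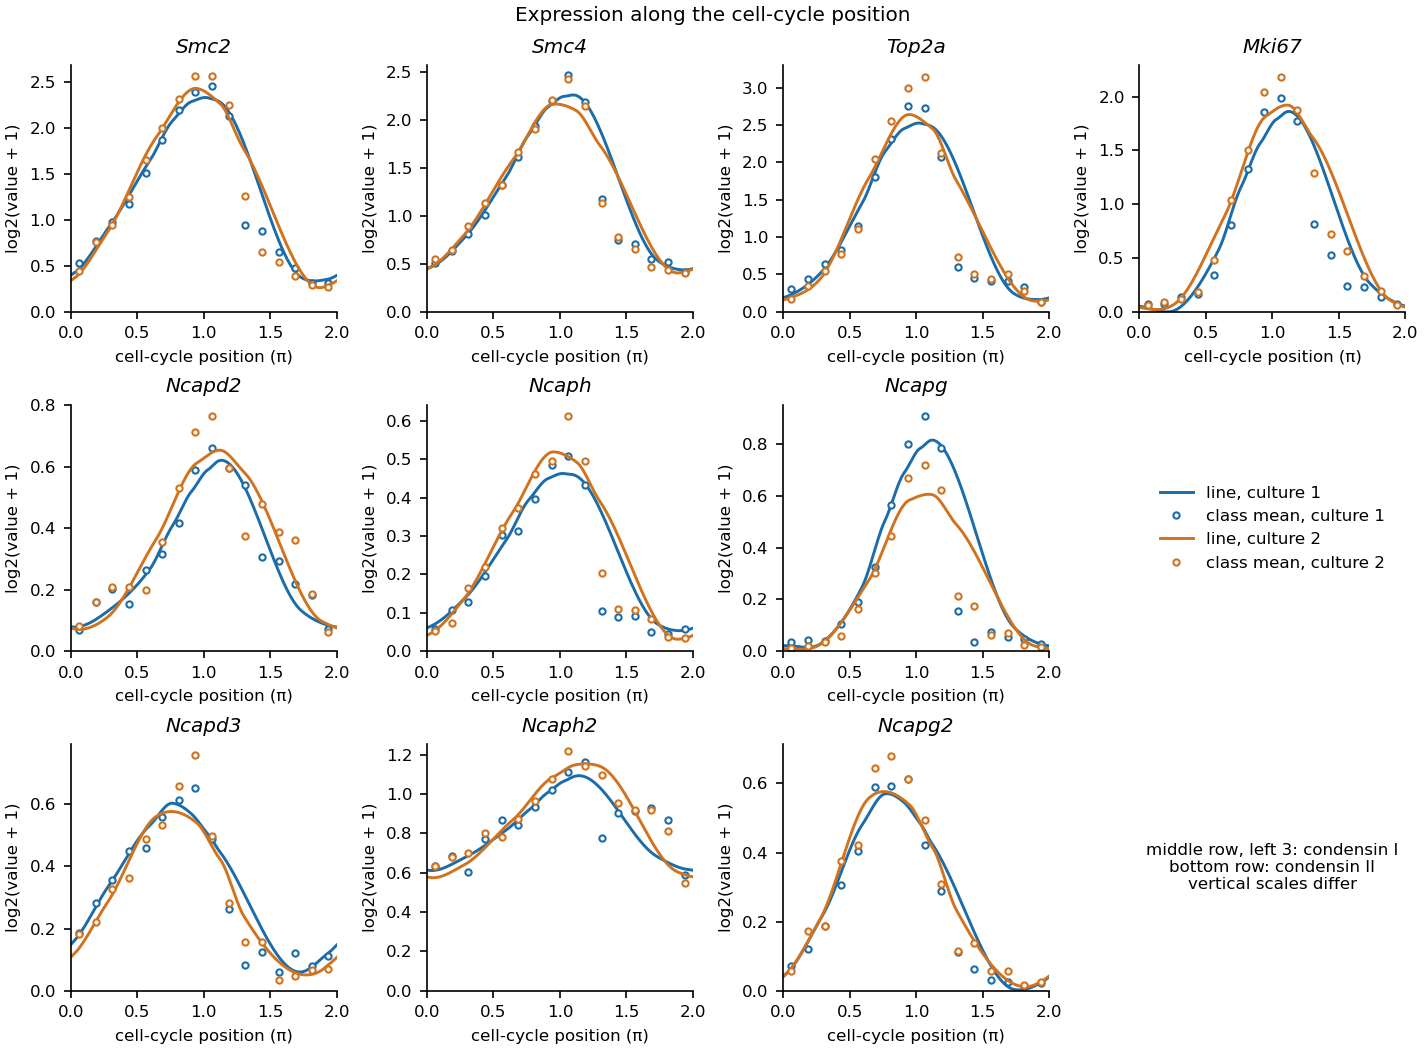
Mean expression of each member along the cell-cycle position (horizontal axis, in units of π). Lines are periodic loess fits of log2(value + 1) for each culture and open points are means in 16 equal classes, and vertical scales differ between panels. The points of Ncapd3 and Ncapg2 are highest before π, those of the condensin I subunits from π to 1.125π, and the lines run above the points between 1.25π and 1.5π in most panels.

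Smc2 (chr4:52439243-52488260) and Smc4 (chr3:69004738-69034623), the ATPases that every condensin needs, were low in G1 and high around π. Around position 0 (1.75π to 0.25π) Smc2 had a mean value of 0.436 in culture 1 and 0.413 in culture 2, and around π (0.75π to 1.25π) it was 10.6-fold and 12.8-fold higher. For Smc4 the means around 0 were 0.518 and 0.552, and the folds 8.45 and 8.15. Both genes were also widespread outside G2 and M, with a value above 0 around position 0 in 37.9% (95% exact binomial interval 36.0 to 39.9) and 22.7% (21.4 to 24.0) of cells for Smc2 and in 41.8% and 32.5% for Smc4. The line maximum lay at 1.01π and 0.94π for Smc2 and at 1.10π and 0.96π for Smc4. Smc4 was thus the later gene within each culture, as it was at both other spans, but the highest of 16 classes was the same for both (1π to 1.125π).

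Top2a (chr11:98992943-99024189), the topoisomerase that untangles sister DNA, had the largest excursion of the 10 members, with a line amplitude (maximum minus minimum, in log2 units) of 2.36 in culture 1 and 2.499 in culture 2. Its mean value was 30.02-fold and 39.4-fold higher around π than around 0. Mki67 (chr7:135689784-135716361) had a smaller log2 amplitude of 1.86 and 1.90 but a similar linear ratio of 36.3 and 43.8. Their courses before π were unlike. In the arc from 0.5π to 0.75π, which holds the mean position of the S-staged cells and is called the S arc here, Top2a already stood at 0.376 and 0.373 of its mean around π, and Mki67 at 0.236 and 0.291. By mean value both were highest in the class from 1π to 1.25π and steeply lower past it. By mean log2(value + 1) Top2a was instead higher from 0.75π to 1π, with 2.551 against 2.505 in culture 1 and 2.777 against 2.641 in culture 2. The line maximum lay at 1.02π and 0.945π for Top2a and at 1.12π and 1.11π for Mki67. From 1.25π to 1.5π, with 85 and 279 cells, Top2a had a mean of 0.646 and 0.937 against 6.77 and 7.90 in the class before. Mki67 had 0.917 and 1.66 against 3.42 and 3.91. Between 0.5π and 1.5π, where 49.6% and 34.99% of the cells lay, fell 96.0% and 93.2% of all Mki67 signal, 94.3% and 92.0% of Top2a, and 94.9% and 93.3% of Ncapg.

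The condensin I subunits Ncapd2 (chr6:125168007-125191701), Ncaph (chr2:127103809-127133954) and Ncapg (chr5:45669919-45700546) were highest just after π in both cultures: in 16 classes without smoothing, the top class of each was 1π to 1.125π. Ncaph is the kleisin that closes the ring, and Ncapd2 and Ncapg are the HEAT-repeat subunits that it holds. Ncapg had the most contrast, with a value above 0 in 3.46% (2.77 to 4.26) and 1.25% (0.93 to 1.65) of cells around 0 and in 66.9% and 44.7% around π, and a mean 28.5-fold and 42.3-fold higher around π. Ncapd2 was found in 9.68% and 7.12% of cells around 0 and in 55.0% and 50.2% around π, with folds of 7.83 and 9.17. For Ncaph the shares were 6.43% and 3.33% against 44.9% and 42.2%, and the folds 7.95 and 14.4. Of the 3, Ncapd2 was the one most often found past 1.25π, in 35.3% and 30.1% of cells up to 1.5π, where Ncaph was found in 8.24% and 12.2% and Ncapg in 10.6% and 13.3%. Its exons overlap those of Scarna10 and Gm28967 on the same strand, whose reads were not told apart.

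The subunits of condensin II did not share 1 course. Ncapd3 (chr9:27030175-27095315) and Ncapg2 (chr12:116405402-116463731), the HEAT-repeat subunits, were high from the S arc on and already lower after π. The kleisin Ncaph2 (chr15:89355719-89372826) had the smallest fold of the 10 members and was highest after π. In consecutive classes of 0.25π from 0.25π to 1.25π, the mean value of Ncapd3 in culture 1 was 0.431, 0.567, 0.712 and 0.439, and in culture 2 it was 0.415, 0.645, 0.902 and 0.458. Ncapg2 ran through 0.265, 0.554, 0.671 and 0.393 in culture 1 and through 0.330, 0.691, 0.819 and 0.473 in culture 2. In both genes and both cultures the top class was the one before π. Ncaph2 had 0.872, 1.06, 1.24 and 1.497 in culture 1 and 0.940, 1.05, 1.32 and 1.58 in culture 2, highest in the class after π.

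Ncaph2 was also the member most present in G1. Around position 0 it had a value above 0 in 46.9% (44.9 to 48.9) and 45.1% (43.5 to 46.7) of cells, and around π in 74.7% and 77.3%, so its mean was only 1.82-fold and 2.10-fold higher there. Ncapd3 was found in 14.8% and 7.62% of cells around 0 and in 51.1% and 37.9% around π (folds of 3.99 and 5.29), and Ncapg2 in 4.84% and 3.36% against 49.6% and 37.6% (folds of 13.5 and 13.4). Ncaph2 overlaps exons of Sco2 and Tymp on the opposite strand, and Ncapg those of Lcorl; whether counting used the strand is not given in the sources used here, and the part of these reads was not tested.

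**Figure D2:**
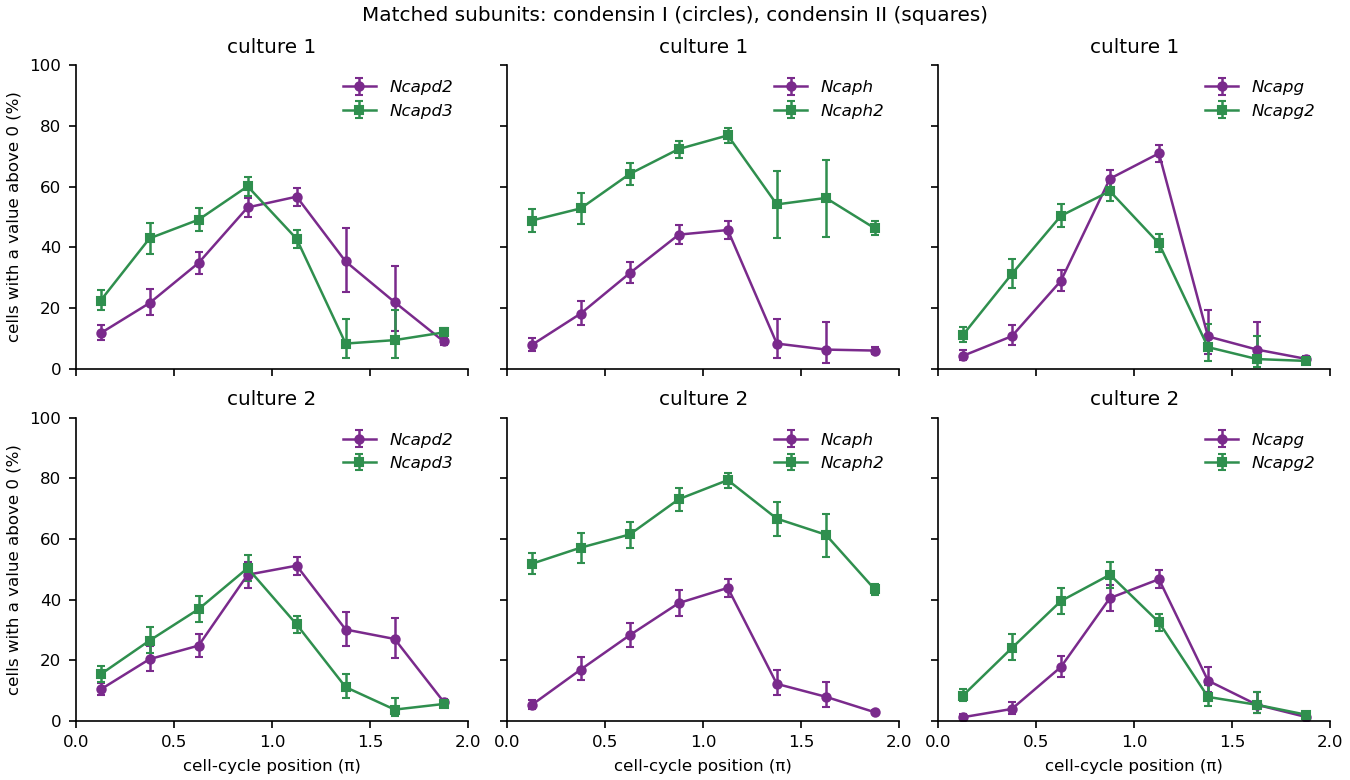
Share of cells with a value above 0 (%) in 8 classes of the cell-cycle position (horizontal axis, in units of π) for each condensin I subunit (circles) and its condensin II counterpart (squares), with exact binomial error bars at 95% (counting error alone). Ncapd3 and Ncapg2 lie above their counterparts before 0.75π and below them from 1π to 1.25π in both cultures, while Ncaph2 lies above Ncaph throughout.

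The matched subunits crossed in 2 of the 3 pairs. In the S arc 50.4% of cells in culture 1 and 39.5% in culture 2 had Ncapg2, against 28.9% and 17.7% for Ncapg, and from 1π to 1.25π, called the G2/M arc here, the shares were 41.3% and 32.5% for Ncapg2 against 71.0% and 46.7% for Ncapg. The same crossing held for Ncapd3 (49.1% and 36.8% in the S arc, then 42.8% and 31.8%) and Ncapd2 (34.8% and 24.8%, then 56.7% and 51.2%). Ncaph2 and Ncaph did not cross. Both genes of a pair were read in the same cells, and a share depends on the gene's own capture as well, so the order within 1 arc says less than the change from arc to arc.

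Set as a ratio of mean values within 1 gene, the G2/M arc over the S arc was 0.773 in culture 1 and 0.711 in culture 2 for Ncapd3, 0.709 and 0.685 for Ncapg2, and 1.41 and 1.51 for Ncaph2. For condensin I it was 2.48 and 2.69 (Ncapd2), 1.65 and 1.66 (Ncaph) and 3.78 and 3.10 (Ncapg). Of the shared core, Smc2 had 1.76 and 1.64 and Smc4 2.24 and 1.99, while Top2a had 2.89 and 2.78 and Mki67 4.85 and 3.69. Ncaph2 lay close to Ncaph, and which was higher depended on the setting: in culture 2 the log2 ratio of Ncaph2 was 0.768 against 0.687 for Ncaph in cells between the 25th and 75th percentile of total UMIs, and 0.599 against 0.596 with the members left out of the angle, so the 2 condensin groups then overlapped. The difference of the group medians was -1.80 ± 0.17 on the log2 scale (SD, n = 2). The median total UMIs per cell were 20253 and 15727 in the S arc and 20527 and 17813 in the G2/M arc. The arcs were chosen after the profiles had been seen, and with classes of 0.125π (0.5π to 0.625π against 1π to 1.125π) the mean log2 ratio was -0.01 for Ncapd3 and 0.12 for Ncapg2. By culture it was 0.03 and -0.05 for Ncapd3, and 0.03 and 0.21 for Ncapg2. At this width neither gene was lower in the later class in both cultures. That choice moves both ends, and both genes were lower at the start of the S arc. From 0.5π to 0.625π Ncapd3 had a mean value of 0.513 and 0.606, and Ncapg2 0.430 and 0.506. From 1π to 1.125π Ncapd3 had 0.524 and 0.586, and Ncapg2 0.441 and 0.587. These later values lay below the means over the whole S arc, a wider class, of 0.567 and 0.645 for Ncapd3 and 0.554 and 0.691 for Ncapg2. The decrease between the arcs thus depended on the width chosen.

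**Figure D3:**
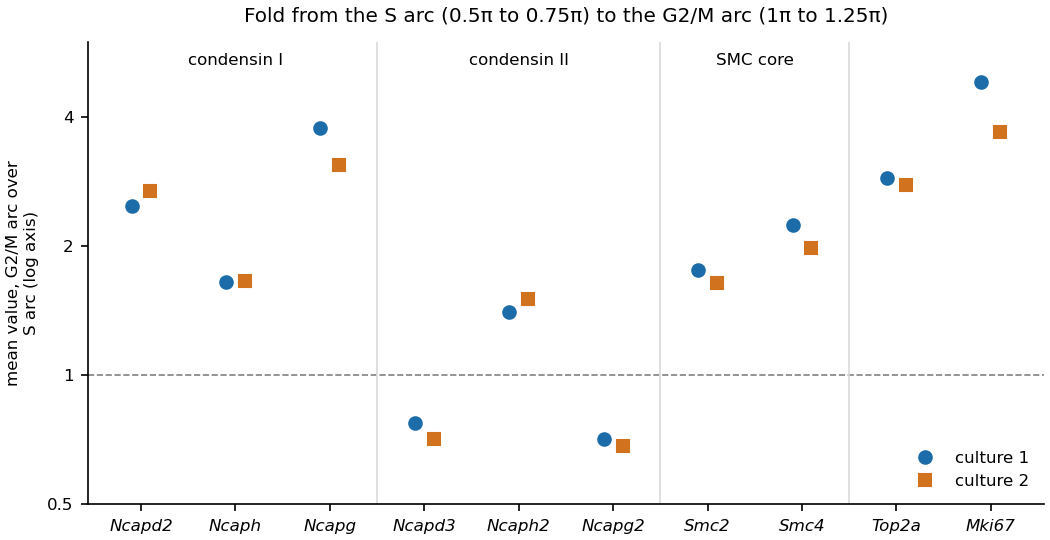
Ratio of the mean value in the G2/M arc (1π to 1.25π) to that in the S arc (0.5π to 0.75π) for each member, log axis, one symbol per culture, with the dashed line at a ratio of 1. Ncapd3 and Ncapg2 lie below 1 in both cultures, and the other 8 members lie above it. The class from 0.75π to 1π is in neither arc.

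On the loess line the maximum lay at 0.76π and 0.755π for Ncapd3 and at 0.78π and 0.76π for Ncapg2, against 1.14π and 1.195π for Ncaph2. The first 2 genes lay later with less smoothing. At a span of 0.1 the maximum was at 0.905π in both cultures for Ncapd3, and at 0.905π and 0.82π for Ncapg2. Of 16 classes without smoothing, the top one was 0.875π to 1π for Ncapd3 in both cultures. For Ncapg2 it was 0.875π to 1π in culture 1 and 0.75π to 0.875π in culture 2. For condensin I it lay at 1.135π and 1.12π (Ncapd2), 1.02π and 0.95π (Ncaph) and 1.12π and 1.09π (Ncapg). The median over the condensin II subunits minus that over condensin I was -0.335π ± 0.007 (SD, n = 2). How large this difference is depended on the smoothing: it was -0.153π at a span of 0.1, -0.098π at a span of 0.5, and -0.125π between the highest of 16 classes. With the members left out of the angle it was -0.295π. The sign of this difference of medians was negative in every setting tried and the amount is not settled. A median leaves Ncaph2 out of view, whose line maximum at a span of 0.3 was later than that of every condensin I subunit in both cultures. The median amplitude hardly differed between the groups (-0.01 ± 0.01 log2 units) and took opposite signs in the 2 cultures, and the median loess R2 was 0.05 lower for condensin II in both.

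By the stages that Seurat assigned, which rest on lists that hold 4 members, Ncapd3 and Ncapg2 also differed from the rest. Mean log2(value + 1) of Ncapd3 was 0.509 in S and 0.461 in G2M in culture 1, and 0.469 and 0.369 in culture 2. Ncapg2 had 0.454 against 0.434, and 0.450 against 0.364. All other members were higher in G2M than in S in both cultures, among them Ncaph2 with 1.09 against 0.837, and 1.14 against 0.833, and Ncapg with 0.813 against 0.330, and 0.555 against 0.222. Cyclone staged only 133 and 56 cells as S, and these had a circular mean near π (0.947π and 1.04π). Between its S and G2M cells Ncapd3 had 0.585 against 0.496 in culture 1 but 0.417 against 0.438 in culture 2, so the direction was not the same in both. Ncapg2 was slightly lower in the G2M cells of both cultures, with 0.464 against 0.452 and 0.434 against 0.406. The 5-stage labels left 42.6% and 44.7% of cells without a stage, and cells labelled G2 were spread widely over the angle (mean resultant length 0.215 and 0.315, where 1 is a single position), so no member was ordered by them.

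Detection was also read at equal depth. With the UMIs of each cell estimated and thinned to 8000, around 0 and around π Ncapg was expected in 1.51% and 35.9% of cells of culture 1 and in 0.64% and 24.6% of culture 2, Top2a in 9.84% and 85.0%, and 6.58% and 80.7%, and Ncaph2 in 24.6% and 40.9%, and 28.3% and 50.8%. The contrast of each stayed in its direction. The median UMIs were 18308 and 14105 around 0 and 22278 and 17440 around π. No cell type known to lack the genes was at hand, and 1 candidate was tried. Cells with all 3 of the neuronal markers Dcx, Gap43 and Stmn3 (332 and 94 cells) lay between 0.5π and 1.5π in 65.1% and 43.6% of cases, and Ncapg was found in 43.7% (38.3 to 49.2) of them in culture 1 and 10.6% (5.22 to 18.7) in culture 2, so they were not used as that background. In G1-staged cells around 0, Ncapg was found in 3.35% of 2358 cells in culture 1 and in 1.26% of 3807 in culture 2, and what part of this is free RNA was not tested.

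Once the position was taken out, correlations between the complex-specific subunits over all cells were below 0.1. In the cells around π, Ncapg and Ncapd3 reached 0.123 in culture 1, beside 0.052 in culture 2. Across cells, the correlation of the loess residuals over all 45 pairs and both cultures ran from -0.02 to 0.33. The highest was between Top2a and Mki67, with 0.334 in culture 1 and 0.266 in culture 2, and with 0.432 and 0.364 in the cells around π (2056 and 1666 cells). Next in culture 1 came Smc2 and Top2a with 0.269 and, in culture 2, 0.199. Subunits of condensin I with each other gave -0.002 to 0.069, and those of condensin II -0.008 to 0.034. Pairs across the complexes reached higher in culture 1, with 0.089 for Ncapg and Ncapd3 and 0.081 for Ncapg and Ncapg2, beside 0.042 and 0.015 in culture 2. These pairs share library and depth, and the values are low counts, so the correlations are a description.

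In the shape of their profile (32 class means, 16 per culture, each culture scaled), Ncapd3 and Ncapg2 were most alike among the condensin II subunits with r = 0.958, while Ncaph2 had r = 0.316 with Ncapd3 and 0.429 with Ncapg2. Smc2 and Smc4 both followed Ncaph, the condensin I kleisin, with 0.984 and 0.986. The other subunits did not sort by complex for Smc2. It had 0.916 with Ncapg and 0.779 with Ncapd2 of condensin I. With Ncapg2, Ncapd3 and Ncaph2 of condensin II it had 0.904, 0.854 and 0.678. For Smc4 they did sort, though narrowly. It had 0.957 with Ncapg and 0.846 with Ncapd2, against 0.841 with Ncapg2, 0.775 with Ncapd3 and 0.739 with Ncaph2. Outside the members, the 5 genes most like the mean of condensin I were Cdk1 (r = 0.992), the kinase that drives entry into mitosis, Melk, Cit, Ska1 and Spag5 (0.979), and the last 3 act at the spindle or in cytokinesis. Those most like the mean of condensin II were Rfc5 (0.973) and Rfc2 of the clamp loader of DNA replication, Cdca5 (0.967), the sororin that holds sister chromatids together, and Tyms and Tk1 (0.965), which supply thymidine nucleotides. For Top2a they were Cdca2 (0.984), Incenp, Aurkb, Gen1 and Sgo1, and for Mki67 Bub1 (0.986), Nuf2, Spc25, Kif4 and Shcbp1. The points share libraries and the angle, and the condensin II mean is led by its 2 similar subunits.

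Of 43 genes listed as regulators and relatives of the members, 38 were in the table. In both cultures an R2 of at least 0.05 was reached by 22 of them (57.9%), beside 4.01% of all genes. Many of the listed genes act in the cell cycle, and which of them the study used for the angle was not looked up here. That they follow the angle may therefore be partly built in, as for the members. The median of their lower R2 was 0.0961, beside 0.00183 over all genes and 0.231 over the members. The 5 highest were Cdca8 (0.7503 and 0.7501 in cultures 1 and 2) and Birc5 (0.774 and 0.684) of the chromosomal passenger complex, Hmgb2 (0.832 and 0.739), Tpx2 (0.705 and 0.6999) and the cyclin Ccnb1 (0.747 and 0.607). The 5 lowest were Ppp2r5a, Rb1, Phf8, Nifk and Top2b. Top2b, the paralog of Top2a that non-dividing cells also use, had an R2 of 0.005 and 0.007, against 0.666 and 0.655 for Top2a. Of the other SMC proteins, Smc1a (0.211 and 0.119), Smc3 (0.136 and 0.0957) of cohesin and Smc6 (0.223 and 0.168) passed, and Smc5 (0.0325 and 0.0314) did not. Kif4, the chromokinesin that binds condensin I, had 0.355 and 0.367, and Mcph1, the microcephaly protein that holds condensin II in check, 0.0189 and 0.0152.

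**Figure D4:**
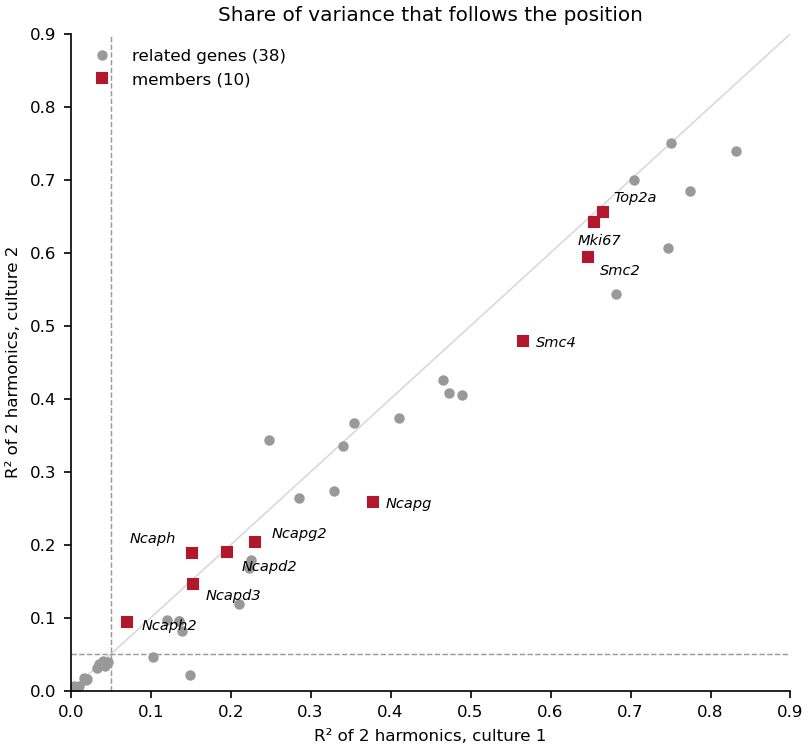
Share of variance explained by 2 harmonics of the cell-cycle position in culture 1 (horizontal axis) and culture 2 (vertical axis) for the 10 members (red squares) and 38 related genes (grey circles), with dashed lines at 0.05. All members lie past both lines, from Ncaph2 at 0.0705 and 0.0944 to Top2a at 0.666 and 0.655.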

How the data were processed

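Single-cell RNA-seq of 2 replicate cultures was analysed from a deposited gene by cell table and a table of cells. The authors quantified reads with alevin of Salmon 1.3.0 on GRCm38, filtered cells and genes, and normalized for library size (Seurat 3.2.2 is also named in the submitters' processing notes). The deposited values are a linear signal, not counts, and the total UMIs per cell are deposited as estimated counts. The position and the stages are deposited labels of other kinds. Each gene also carries a factor that differs between cultures (1 UMI of Smc2 was worth a median value of 0.845 in culture 1 and 1.57 in culture 2), so levels were read only within a culture. UMIs were estimated as 1 factor per cell times 1 step per gene. Of values of genes found in 5% to 35% of cells, 89.8% and 89.9% came within 0.05 of a whole UMI, but for Smc2 only 24.1% and 47.8% and for Top2a 23.7% and 36.0%. Below 1.5 UMIs, a range chosen after those shares were seen, 91.8% to 100% of member values came near a multiple of 0.5 UMIs. Other models of the step were tried and none was exact. Because the recovery is incomplete, no count test was run, and the estimates serve only for the thinned shares.

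Periodic loess (R 4.3.3, span 0.3, degree 2, tripled data) and harmonic fits (numpy) used log2(value + 1) in each culture alone, and both were tested on simulated data. In that test the loess line displaced simulated maxima at and past π more than earlier ones, so the positions of maxima are approximate. Folds are ratios of mean values with no pseudocount. Intervals are exact binomial at 95% and cover counting error only. The cells were treated as 1 population, no doublet caller was run, and the authors had removed cells by doublet score. The members, gene lists and tests were chosen with earlier results of these data known. The windows, arcs, ratios between them, the 16 classes for the highest class and the thinning were added after the profiles were seen. Named genes were every member, the 5 highest and 5 lowest related genes by lower R2, and the 5 most similar genes of 4 targets; Smc1a, Smc3, Smc5, Smc6, Kif4 and Mcph1 were added after their values were seen. Promoters and gene positions came from RefSeq (GRCm38.p6) and GENCODE on GRCm38.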

Additional observations from a re-analysis of the deposited data

How the results depend on the processing

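No paired analysis was possible because there is 1 group of 2 cultures. With 2 cultures, a value was held to have moved when it left the SD of the cultures, which is small. The condensin II minus condensin I difference in line maximum (-0.335π) was -0.153π at span 0.1, -0.0975π at span 0.5, -0.318π with a pseudocount of 0.1, -0.295π with the position without the members, -0.308π with cell totals put back, -0.348π in cells between the 25th and 75th percentile of total UMIs and -0.125π from the highest class (chosen after seeing the data), and -0.34π to -0.33π with 1 culture left out. The difference in R2 (-0.0482) was -0.0441, -0.0544, -0.0488, -0.0520, -0.0516 and -0.0376 under the first 6 of these settings, and -0.0486 to -0.0477 with 1 culture left out. The difference in amplitude (-0.009 log2 units) was -0.0493 at span 0.5, -0.0367 with a pseudocount of 0.1 and -0.0462 with the position without the members; with 1 culture left out it was 0.000401 without culture 2, a change of sign, and -0.0183 without culture 1. The log2 ratio of the G2/M to the S arc (difference -1.80) was added after the profiles were seen; it was -1.08 from shares of cells in place of mean values, kept within the SD under the other 4 settings, and was -1.92 to -1.68 with 1 culture left out. With classes of 0.125π, which move both ends of the comparison, the mean ratio of Ncapg2 turned from -0.52 to 0.12. That of Ncapd3 went from -0.43 to -0.008, with 0.03 in culture 1 and -0.05 in culture 2. The cause of the other changes was not tested. The count of 10 members with an R2 of at least 0.05 was 9 at a threshold of 0.1, without Ncaph2, and 10 under the other settings. Of the single-member values, 42 of 60 amplitudes, 37 of 70 positions and 41 of 50 ratios moved past the SD without a change of sign in the mean of the 2 cultures.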
